A study of Homo sapiens with 10 samples.

Results

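The core and linker histone genes of the histone clusters were taken as the genes whose names on the array begin with HIST1H, HIST2H, HIST3H or HIST4H. They were 64 of the 30484 gene names on the array, and 54 lay in the HIST1 cluster, 6 in HIST2, 3 in HIST3 and 1 in HIST4. By histone type they were 6 H1, 15 H2A, 17 H2B, 12 H3 and 14 H4 genes. Each gene was given by the probe with the highest mean signal over the 10 arrays, so that 64 of the 85 probes for these genes were used.

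Histones H2A, H2B, H3 and H4 form the protein core around which DNA is wound, and H1 binds the linker DNA between these cores. Cells make most of this protein during DNA replication, from clustered genes without introns whose mRNAs end in a stem-loop bound by the protein SLBP in place of a poly(A) tail. Some of these genes can also give polyadenylated mRNA, as cells leaving the cycle are known to do for a number of H2B, H2A and H1 genes.

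The arrays were single-color Agilent Whole Human Genome oligonucleotide microarrays hybridized with RNA of PC-3, an established androgen-independent prostate cancer cell line. There were 5 groups of 2 biological replicates each, all of the same line. One group was left untreated and taken at 0 h. The other 4 groups were harvested after 24 h with DMSO (the solvent of the drugs), 60 µM luteolin (a plant flavonoid), 60 µM gefitinib (an inhibitor of the EGF receptor kinase), or these 2 drugs together at the same doses (luteolin plus gefitinib). The design asks what each drug and their co-administration did to gene expression. The names of the files of all 6 drug-treated arrays give another treatment than their labels do. By file name, the arrays labelled luteolin carried gefitinib, those labelled gefitinib carried both drugs and those labelled luteolin plus gefitinib carried luteolin. Groups are named here by their labels, and under the file names each value below would move to that other drug group. Labelling used oligo-dT primers, and the share of each histone mRNA that such primers copied was not measured.

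The promoter sequences are shown because the genes of a type share short elements there, while their levels moved apart within H4. RefSeq promoters (GRCh38.p14) were found for 57 of the 64 genes, and the 250 bases before the annotated start were searched on both strands. GGTCCG, part of the element described for H4 promoters, was in 10 of 11 H4 promoters and in 3 of the 46 promoters of other types, against 9.33% of all promoters. ATTTGCAT, the octamer bound by OCT1, was in 13 of 17 H2B, 10 of 13 H2A and 1 of 10 H3 promoters, in none of the H4 or H1 promoters, and in 1.66% of all promoters. CCAAT was in all 46 promoters of the other types but in 3 of 11 H4 promoters, and in 33.0% of all promoters. TATAA was in 53 of the 57 promoters and in 19.6% of all. Matches of different motifs overlapped in 3 of the 57. Below are the 100 bases before the start of 5 H4, 2 H2B and 1 H2A gene described later, 5′ to 3′ on the strand of the gene, with matches to these 4 motifs in capitals.
HIST1H4L (H4C13, chr6:27873535-27873634, minus strand): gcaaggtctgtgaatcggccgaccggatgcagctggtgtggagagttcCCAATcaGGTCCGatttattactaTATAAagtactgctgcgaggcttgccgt
HIST1H4B (H4C2, chr6:26027284-26027383, minus strand): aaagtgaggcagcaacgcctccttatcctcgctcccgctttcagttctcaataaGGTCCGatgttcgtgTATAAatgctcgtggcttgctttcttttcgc
HIST1H4E (H4C5, chr6:26204510-26204609, plus strand): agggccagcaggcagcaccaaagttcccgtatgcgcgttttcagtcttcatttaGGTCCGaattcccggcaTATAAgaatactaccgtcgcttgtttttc
HIST1H4H (H4C8, chr6:26285535-26285634, minus strand): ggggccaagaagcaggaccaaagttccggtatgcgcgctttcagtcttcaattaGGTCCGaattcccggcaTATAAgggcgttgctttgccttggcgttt
HIST1H4K (H4C12, chr6:27831561-27831660, minus strand): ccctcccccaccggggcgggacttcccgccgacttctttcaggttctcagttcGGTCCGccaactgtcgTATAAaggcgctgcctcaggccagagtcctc
HIST1H2BG (H2BC8, chr6:26216689-26216788, minus strand): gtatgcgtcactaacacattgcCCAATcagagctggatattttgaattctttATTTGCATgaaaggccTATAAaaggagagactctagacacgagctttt
HIST1H2BK (H2BC12, chr6:27146859-27146958, minus strand): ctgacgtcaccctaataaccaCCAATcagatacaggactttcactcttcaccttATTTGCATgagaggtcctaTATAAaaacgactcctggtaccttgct
HIST2H2AA3 (H2AC18, chr1:149842751-149842850, minus strand): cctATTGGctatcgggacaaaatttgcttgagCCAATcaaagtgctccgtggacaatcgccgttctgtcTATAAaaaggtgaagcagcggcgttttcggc

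Values are log2 of the processed signal over the array's own 75th percentile, and a log2 change is a difference of group means of such values. That percentile lay between 539.8 and 1402 signal units, and an array had 63.4 to 70.4% of its 41000 probes well above background. No probe was saturated. KRT8, KRT18, KRT19, TACSTD1 (EPCAM) and VIM, which PC-3 cells express, were well above background on all 10 arrays. KLK3 (prostate-specific antigen), which PC-3 cells are known to lack or hold at a low level, was well above background on all 10 arrays. Of the markers of other cells, PTPRC (leukocytes) was well above background on 0 arrays, COL1A1 (fibroblasts) on 9 and PECAM1 (endothelium) on 10. KLK3 was raised 1.36 and COL1A1 lowered by a log2 change of -2.22 (above background on 1 of 2 arrays) with gefitinib against DMSO, and their part in the histone results was not tested. Over the tested histone genes, the replicate SD had a median of 0.0731 at 0 h, 0.0507 with DMSO, 0.0913 with luteolin, 0.29 with gefitinib and 0.232 with luteolin plus gefitinib (log2).

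Of the 64 genes, 60 were tested, each well above background on the 2 arrays of some group. HIST1H1A, HIST1H1B, HIST1H2BA and HIST1H4G did not reach this. A gene was said to rise or fall (called) where limma's adjusted p was under 0.05 and the change at least 2-fold.

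With luteolin, 11 of the 60 histone genes rose and 10 fell against DMSO, where 7.04% of all tested genes rose and 6.13% fell. With gefitinib 3 rose and 8 fell, 5.0% and 13.3% of the 60, where 16.6% and 14.1% of all tested genes did. With luteolin plus gefitinib 21 rose and 4 fell, 35.0% and 6.67% of the 60, against 12.1% and 7.45% of all tested genes. HIST1H1T and HIST4H4, among the 21, were not well above background with DMSO and were tested through arrays of the groups where they read higher. HIST4H4 was also among the 3 with gefitinib, where it was well above background on 1 of 2 arrays. The types moved apart. With luteolin all 16 tested H2B genes had a positive change and all 12 H3 genes a negative one. By the probes used, the H2B and H3 genes stayed within a log2 change of 1.37 of DMSO in the drug groups, while the H4 genes ran from -3.86 to 1.20 with luteolin alone. The raised counts changed when single arrays were left out. They were 5 and 4 with luteolin without DMSO replicate 1 and 2, and 4 without luteolin replicate 2. They were 0 with gefitinib without gefitinib replicate 1 and 15 without gefitinib replicate 2. They were 14 and 9 with the 2 drugs without DMSO replicate 1 and 2, and 6 without luteolin plus gefitinib replicate 2. Under quantile normalization 0 rose and 15 fell with gefitinib and 10 rose and 5 fell with luteolin plus gefitinib. The median of all genes was itself 0.24 with gefitinib and 0.19 with luteolin plus gefitinib, and 0.06 and 0.02 under quantile normalization.

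**Figure D1:**
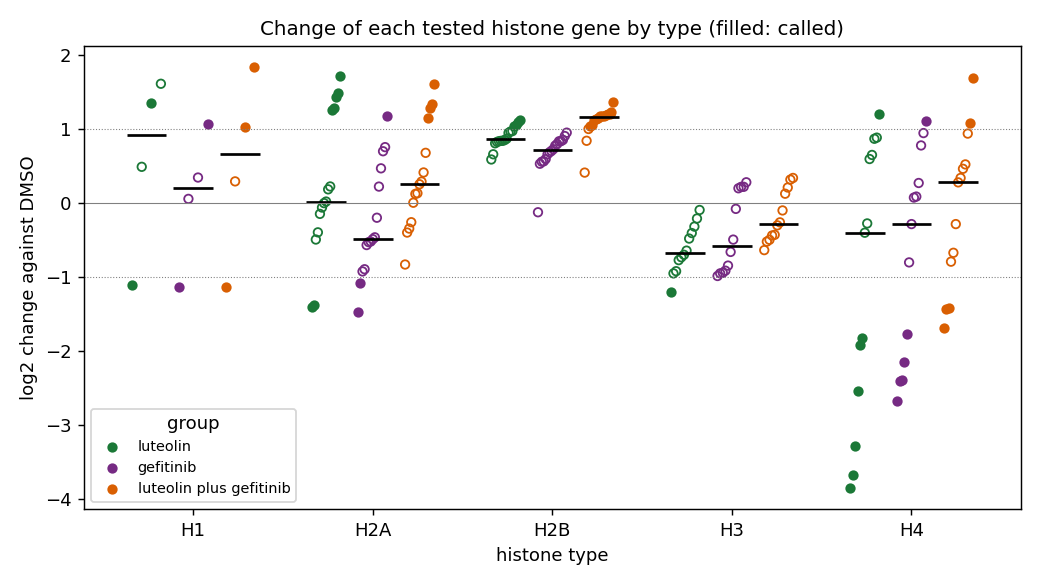
Log2 change against DMSO (y axis) of each tested histone gene, by histone type (x axis) and drug group (color). Filled points were called, bars are medians and dotted lines mark a 2-fold change. H2B lies above 0 in all 3 groups but for 1 gene with gefitinib, and the H4 genes spread from -3.86 to 1.68.

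Luteolin lowered 6 of the 13 tested H4 genes. HIST1H4L, HIST1H4C, HIST1H4B, HIST1H4E, HIST1H4D and HIST1H4A fell, all of which code for the same H4 protein. All but HIST1H4A also fell with gefitinib, and the first 3 fell with the 2 drugs together. HIST1H4H rose with luteolin, HIST1H4K with luteolin plus gefitinib, and HIST4H4 with gefitinib and with luteolin plus gefitinib. The remaining HIST1H4F, HIST1H4I, HIST1H4J and HIST2H4A were not called against DMSO, with changes of 0.87, 0.59, -0.40 and 0.65 with luteolin.

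HIST1H4L (probe at chr6:27948928-27948987, hg18) read 4.60 and 4.72 at 0 h, 4.63 and 4.66 with DMSO, 1.21 and 0.38 with luteolin, 1.93 and 2.01 with gefitinib, and 3.06 and 2.85 with luteolin plus gefitinib. All 6 drug-treated arrays lay below all 4 controls, and no 2 of the drug groups overlapped. Against DMSO the log2 change was -3.86 ± 0.25 (SE, adjusted p = 0.000214) with luteolin, a 14.5-fold lower signal. It was -2.68 ± 0.25 (adjusted p = 0.000207) with gefitinib and -1.69 ± 0.25 (adjusted p = 0.00252) with luteolin plus gefitinib.

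HIST1H4C (probe at chr6:26212447-26212506, hg18) had the same order of groups. It read 6.47 and 6.63 at 0 h, 6.59 and 6.54 with DMSO, 3.30 and 2.49 with luteolin, 4.08 and 4.27 with gefitinib, and 5.17 and 5.10 with luteolin plus gefitinib. The changes against DMSO were -3.67 ± 0.25, -2.39 ± 0.25 and -1.43 ± 0.25, with adjusted p of 0.000217, 0.000311 and 0.00417. The drug arrays again lay below every control array, without overlap between the groups.

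HIST1H4B (probe at chr6:26135128-26135187, hg18) read 4.26 and 3.45 at 0 h, 3.72 and 3.66 with DMSO, 0.66 and 0.15 with luteolin, 1.24 and 1.33 with gefitinib, and 2.32 and 2.24 with luteolin plus gefitinib. Its 2 arrays at 0 h lay further apart than those of the drug groups. The changes against DMSO were -3.29 ± 0.27, -2.41 ± 0.27 and -1.42 ± 0.27, with adjusted p of 0.000468, 0.00045 and 0.00625.

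HIST1H4E (probe at chr6:26313151-26313210, hg18) fell in the single-drug groups. It read 2.28 and 2.23 at 0 h, 2.12 and 1.95 with DMSO, -0.25 and -0.78 with luteolin, 0.32 and -0.56 with gefitinib, and 1.09 and 1.39 with luteolin plus gefitinib. The luteolin and gefitinib arrays overlapped. The change was -2.55 ± 0.30 (adjusted p = 0.00119) with luteolin and -2.15 ± 0.30 (adjusted p = 0.00108) with gefitinib, while -0.80 ± 0.30 (adjusted p = 0.0622) with luteolin plus gefitinib missed the threshold. No call of HIST1H4L, HIST1H4C, HIST1H4B or HIST1H4E against DMSO was lost when any 1 array was left out.

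HIST1H4H (probe at chr6:26393476-26393535, hg18) moved the other way with luteolin. It read 1.87 and 1.98 at 0 h, 1.84 and 1.73 with DMSO, 2.87 and 3.10 with luteolin, 1.65 and 1.35 with gefitinib, and 1.96 and 2.54 with luteolin plus gefitinib. The luteolin arrays lay above all others, with a change of 1.20 ± 0.22 (adjusted p = 0.00649). The call was lost when the second DMSO array was left out (1.14, adjusted p = 0.054), and likewise for the second luteolin array (1.08, adjusted p = 0.0559). The 100 promoter bases of HIST1H4H shown above were identical to those of HIST1H4E at 78 positions, yet luteolin lowered HIST1H4E and raised HIST1H4H. No other pair of H4 promoters shared more positions except HIST1H4J and HIST1H4K, with 99 of 100. GGTCCG and TATAA were in the promoters of HIST1H4H, which rose with luteolin, and HIST1H4K, which rose only with luteolin plus gefitinib. Both motifs were also in those of HIST1H4B, HIST1H4D, HIST1H4E and HIST1H4L, which fell with luteolin and with gefitinib. The same held for HIST1H4F, HIST1H4I and HIST1H4J, which were not called against DMSO. HIST1H4C, HIST1H4A and HIST4H4 had no entry.

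HIST1H4K (probe at chr6:27906933-27906992, hg18) read 0.85 and 0.97 at 0 h, 1.21 and 1.00 with DMSO, 0.79 and 0.87 with luteolin, 2.31 and 1.79 with gefitinib, and 1.90 and 2.48 with luteolin plus gefitinib. It was 1.09 ± 0.24 above DMSO with luteolin plus gefitinib (adjusted p = 0.0107), a call lost without DMSO replicate 2 (0.98), without luteolin plus gefitinib replicate 2 (0.79) and under median scaling (0.94). Its neighbor in promoter sequence, HIST1H4J, changed by 0.94 there (adjusted p = 0.015) and was under 2-fold. Both lay higher with gefitinib than with luteolin, by 1.22 for HIST1H4K and 1.18 for HIST1H4J, and were called in that comparison (adjusted p of 0.00326 and 0.00296). The probe used for HIST4H4 was at the edge of detection, well above background on 0 of 2 DMSO, 1 of 2 gefitinib and 2 of 2 arrays of luteolin plus gefitinib. Its signal was at least 2.15-fold higher than DMSO with gefitinib (adjusted p = 0.00542) and at least 3.21-fold higher with luteolin plus gefitinib (adjusted p = 0.00197), a bound set by the lowest signal well above background on the DMSO arrays or the probe's own signal, whichever was higher. It was tested only because it was above background on both arrays of luteolin plus gefitinib, and its gefitinib call was lost without gefitinib replicate 1 (0.73) and under quantile normalization (0.93). Another HIST4H4 probe, the one listed with a RefSeq transcript, was above background on both DMSO arrays and on no luteolin, gefitinib or luteolin plus gefitinib array, and it was called lowered where the probe used was called raised.

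**Figure D2:**
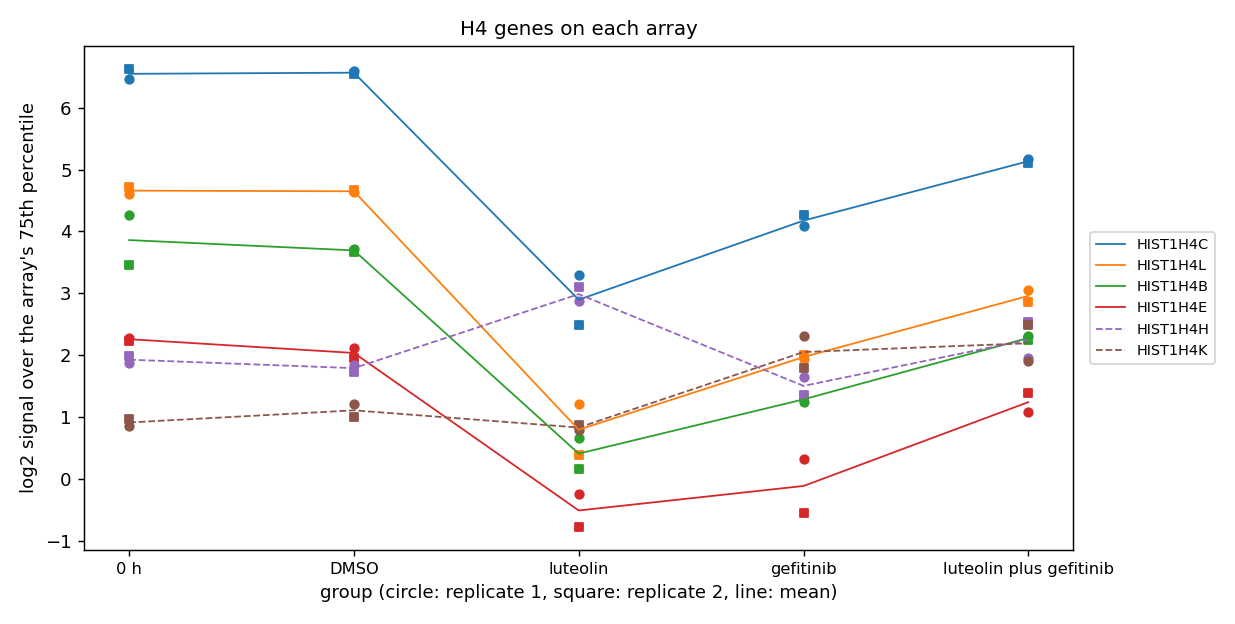
Log2 signal over the array's 75th percentile (y axis) of 6 H4 genes on each of the 10 arrays, by group (x axis); circles are replicate 1, squares replicate 2, and lines join group means. HIST1H4C, HIST1H4L and HIST1H4B are lowest with luteolin and lie between luteolin and DMSO in the other drug groups, whereas HIST1H4H is highest with luteolin.

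By the probes used, the H2B genes moved in a narrow band. Their median log2 change against DMSO was 0.86 with luteolin (0.59 to 1.12), 0.71 with gefitinib (-0.13 to 0.95) and 1.15 with luteolin plus gefitinib (0.41 to 1.37), where the medians of all genes were 0.08, 0.24 and 0.19. HIST1H2BD, HIST1H2BI, HIST1H2BO and HIST3H2BB rose with luteolin, and 13 of the 16 tested genes, these 4 among them, rose with luteolin plus gefitinib. None was called with gefitinib at 2-fold, although 11 had an adjusted p under 0.05. No share of all tested genes is given at the adjusted p alone, so the 11 are not read as a result about H2B. Leaving out gefitinib replicate 2 gave 9 calls with gefitinib, and the slide as a block gave 3. The 13 with luteolin plus gefitinib became 1 without replicate 2 of that group, 8 and 4 without DMSO replicate 1 and 2, 8 under median scaling and 4 under quantile normalization. The 4 with luteolin became 0 without DMSO replicate 1, DMSO replicate 2 or luteolin replicate 2, 2 without luteolin replicate 1 or under median scaling, and 7 under quantile normalization. By the probes used, HIST1H2BC, HIST1H2BJ and HIST2H2BE were called in no drug group. The other probes of HIST2H2BE, of the same transcript, rose by 1.49 and 1.54 with luteolin (adjusted p of 0.0128 and 0.00991). With luteolin plus gefitinib these probes rose by 1.47 and 1.51 (adjusted p of 0.0101 and 0.00826), and with gefitinib they were not called (0.11 and 0.22). Under quantile normalization the H2B median with gefitinib was 0.29, and 0.84 with luteolin plus gefitinib. Within slide 2, which held replicate 1 of DMSO and of each drug group, the medians were 0.87, 1.00 and 0.85. Within slide 3 they were 0.87 with luteolin and 1.44 with luteolin plus gefitinib. Against luteolin, the H2B median with luteolin plus gefitinib was -0.08 on slide 2 and 0.48 on slide 3.

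HIST1H2BE (probe at chr6:26292319-26292378, hg18) showed the largest H2B change. It read 3.17 and 3.30 at 0 h, 3.20 and 3.15 with DMSO, 4.08 and 4.21 with luteolin, 4.10 and 3.31 with gefitinib, and 4.30 and 4.79 with luteolin plus gefitinib, where it changed by 1.37 ± 0.27 (adjusted p = 0.00682). Its 1.96-fold change with luteolin (adjusted p = 0.0323) stayed under 2-fold. HIST1H2BD read 2.18 and 2.19 at 0 h, 2.12 and 2.15 with DMSO, 3.09 and 3.43 with luteolin, 3.17 and 2.70 with gefitinib, and 3.06 and 3.69 with luteolin plus gefitinib. It was raised 1.12 ± 0.25 with luteolin (adjusted p = 0.0134) and 1.23 ± 0.25 with luteolin plus gefitinib (adjusted p = 0.00727). Every drug-treated array of these genes lay above both DMSO arrays.

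HIST3H2BB, of the small cluster on chromosome 1 (probe at chr1:226712648-226712707, hg18), read 2.96 and 2.96 at 0 h, 2.79 and 2.73 with DMSO, 3.82 and 3.88 with luteolin, 3.89 and 3.30 with gefitinib, and 3.74 and 4.18 with luteolin plus gefitinib. It was raised 1.09 ± 0.23 with luteolin (adjusted p = 0.0104) and 1.20 ± 0.23 with luteolin plus gefitinib (adjusted p = 0.00577). All 6 drug arrays lay above both DMSO arrays. HIST1H2BG (probe at chr6:26324696-26324755, hg18) read 1.68 and 1.64 at 0 h, 1.30 and 1.26 with DMSO, 2.16 and 2.08 with luteolin, 2.47 and 1.99 with gefitinib, and 2.14 and 2.82 with luteolin plus gefitinib. It was called with luteolin plus gefitinib, at 1.20 ± 0.25 (adjusted p = 0.0078), and was under 2-fold with luteolin (0.84, adjusted p = 0.0385) and with gefitinib (0.95, adjusted p = 0.0124). HIST1H2BK, named for its high mean signal, read 4.51 and 4.54 at 0 h, 4.07 and 4.08 with DMSO, 4.97 and 4.85 with luteolin, 5.21 and 4.74 with gefitinib, and 4.78 and 5.44 with luteolin plus gefitinib. It was higher on both 0 h arrays than on both DMSO arrays. Against DMSO it rose by 1.04 ± 0.24 with luteolin plus gefitinib (adjusted p = 0.0123), a call lost under normexp background correction (0.97), median scaling (0.89) and quantile normalization (0.62), and against 0 h by 0.59 ± 0.24 (adjusted p = 0.0846), which was not called. The luteolin calls of HIST1H2BD and HIST3H2BB were lost without DMSO replicate 1 (adjusted p of 0.0794 and 0.0615), DMSO replicate 2 (0.073 and 0.0693) or luteolin replicate 2 (0.101 and 0.069). Without luteolin plus gefitinib replicate 2, the changes there of HIST1H2BD, HIST3H2BB, HIST1H2BG and HIST1H2BK were 0.92, 0.98, 0.86 and 0.71 and were not called, and without gefitinib replicate 2 the same 4 genes were called with gefitinib, at 1.03, 1.13, 1.19 and 1.14.

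The coding sequences of a histone type are near copies of each other, and 7 of the 64 probes used list more than 1 RefSeq transcript in the file, that of HIST1H2BE 4 of them. Values of single genes within a type are therefore uncertain, and cross-hybridization was not tested.

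H2A was divided, and with luteolin 5 of its 15 genes rose and 2 fell. HIST2H2AA3 rose in all 3 drug groups. HIST1H2AC, HIST1H2AD and HIST1H2AE rose with luteolin and with luteolin plus gefitinib, and HIST1H2AA with luteolin. HIST1H2AJ fell with luteolin and with gefitinib, HIST1H2AL with luteolin and HIST1H2AB with gefitinib. The median H2A change was 0.02, -0.49 and 0.25 in the 3 groups. Under quantile normalization it was -0.83 with gefitinib, where 4 H2A genes fell and 0 rose, and -0.01 with luteolin plus gefitinib. Without gefitinib replicate 1, 4 fell and 0 rose as well.

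HIST2H2AA3 (probe at chr1:148089729-148089785, hg18) read 3.79 and 4.17 at 0 h, 3.78 and 3.82 with DMSO, 5.37 and 5.66 with luteolin, 5.20 and 4.77 with gefitinib, and 5.35 and 5.47 with luteolin plus gefitinib. Its changes of 1.71 ± 0.21, 1.18 ± 0.21 and 1.61 ± 0.21 had adjusted p of 0.00137, 0.00292 and 0.0017. All drug arrays lay above the controls. With gefitinib its change was 0.52 (adjusted p = 0.0618) under quantile normalization and 0.96 without gefitinib replicate 1, and it was not called in either.
HIST1H2AC (probe at chr6:26246801-26246860, hg18) read 1.65 and 2.01 at 0 h, 1.86 and 2.10 with DMSO, 3.47 and 3.44 with luteolin, 1.70 and 1.12 with gefitinib, and 3.03 and 3.22 with luteolin plus gefitinib. This probe listed no RefSeq transcript, and the HIST1H2AC probe that did lay 14419 bases away (compared below). By the probe used, the gefitinib arrays lay below DMSO and the other drug arrays above it. By the same probe HIST1H2AC was 2.05 ± 0.23 higher with luteolin than with gefitinib (adjusted p = 0.000241). Its change of 1.15 ± 0.23 with luteolin plus gefitinib (adjusted p = 0.00704) was not called without DMSO replicate 1 (adjusted p = 0.0543), under median scaling (just under 2-fold) or by the median level over its probes (0.83). HIST1H2AD read 3.41 and 3.46 at 0 h, 3.17 and 3.23 with DMSO, 4.55 and 4.70 with luteolin, 4.18 and 3.73 with gefitinib, and 4.49 and 4.59 with luteolin plus gefitinib. It lay above DMSO on every drug array, with luteolin and luteolin plus gefitinib giving changes of 1.43 ± 0.18 and 1.34 ± 0.18 (adjusted p of 0.00154 and 0.0019).
HIST1H2AJ (probe at chr6:27890166-27890225, hg18) went down instead. It read 3.68 and 3.69 at 0 h, 3.58 and 3.49 with DMSO, 2.09 and 2.22 with luteolin, 2.17 and 1.95 with gefitinib, and 2.75 and 2.65 with luteolin plus gefitinib. The changes were -1.38 ± 0.15 (adjusted p = 0.00102), -1.47 ± 0.15 (adjusted p = 0.000321) and -0.83 ± 0.15 (adjusted p = 0.00529), the last under 2-fold.

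The H2A and H2B genes commonly lie side by side on opposite strands, and 10 such pairs had probes within 2000 bases (559 to 1268 bases apart), 9 of them with both genes tested. The H2B gene had the higher change in 7 of the 9 pairs with luteolin, 8 with gefitinib and 7 with luteolin plus gefitinib. Over all tested genes the H2B median was also above that of H2A (0.86 against 0.02, 0.71 against -0.49, 1.15 against 0.25). Whether neighbors differed from other pairs of H2A and H2B genes was not tested. By the probes used, the widest gap was that of HIST1H2AJ and HIST1H2BM, 756 bases apart. Luteolin changed the H2A gene by -1.38 and the H2B gene by 0.95, the latter not called. Another HIST1H2AJ probe, of the same transcript, changed by -0.39 with luteolin (limma adjusted p = 0.277). HIST1H2AD and HIST1H2BF went up together, by 1.43 and 0.83 with luteolin.

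**Figure D3:**
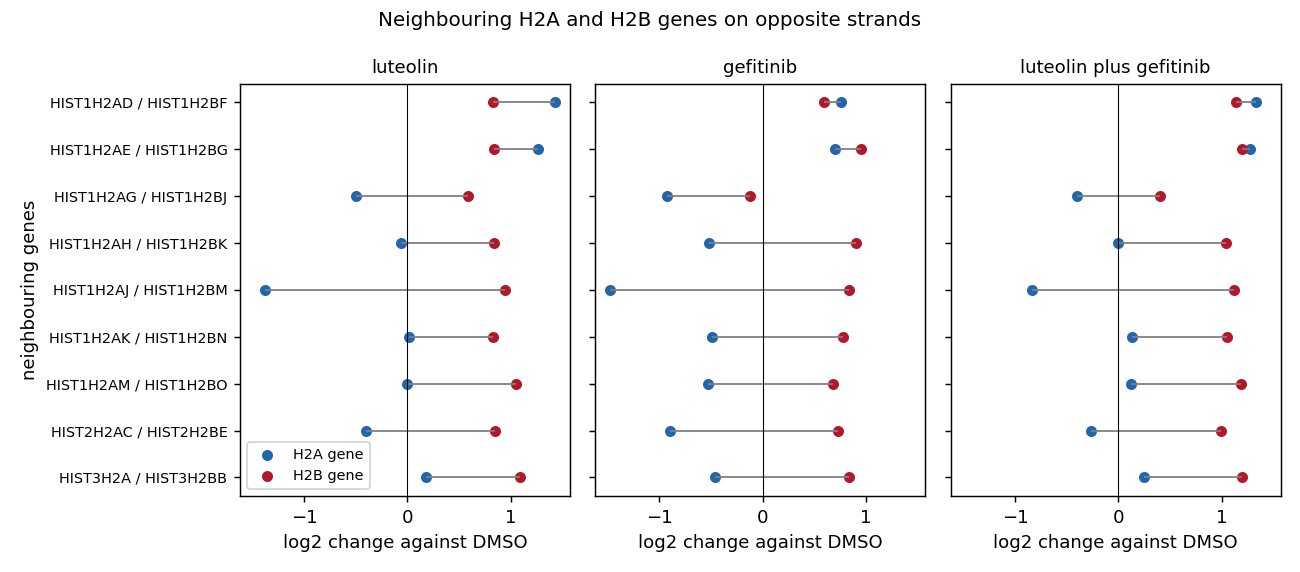
Log2 change against DMSO (x axis) of the H2A gene (blue) and the H2B gene (red) in each of 9 neighboring pairs (y axis), 1 panel per drug group. The H2B gene lies to the right in all but 2 pairs with luteolin, 1 with gefitinib and 2 with luteolin plus gefitinib.

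Of the 12 H3 genes HIST1H3F was called, with luteolin, and no other gene or group was. Under quantile normalization 3 fell with luteolin and 5 with gefitinib, and without DMSO replicate 2 it was 3 in each. With gefitinib 2 fell under normexp background correction, with the slide as a block and without gefitinib replicate 1, and 1 without gefitinib replicate 2. With luteolin 2 fell under median scaling and without luteolin replicate 2. At the adjusted p alone, without the 2-fold minimum, 6 H3 genes passed with luteolin, 7 with gefitinib and 3 with luteolin plus gefitinib. No share of all tested genes is given at that threshold, so these counts are not read as a result about H3. The H3 changes had medians of -0.67 (-1.21 to -0.10), -0.58 (-0.99 to 0.28) and -0.28 (-0.64 to 0.34) in the 3 drug groups, and that with gefitinib was -0.93 under quantile normalization. HIST1H3F (probe at chr6:26358567-26358626, hg18) read 1.90 and 1.75 at 0 h, 1.84 and 1.64 with DMSO, 0.47 and 0.60 with luteolin, 0.85 and 0.81 with gefitinib, and 1.07 and 1.14 with luteolin plus gefitinib. Its change with luteolin was -1.21 ± 0.15 (adjusted p = 0.00152), and the -0.92 with gefitinib (adjusted p = 0.0023) was under 2-fold. HIST3H3, a testis form of H3 named here for its high mean signal, ran from 5.46 to 6.10 over the 10 arrays. Its changes were -0.10 ± 0.16, 0.22 ± 0.16 and 0.31 ± 0.16 and none was called. Under quantile normalization those with gefitinib and with luteolin plus gefitinib turned to -0.63 and -0.29.

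Of the linker histones, HIST1H1C (H1.2) rose and HIST1H1D (H1.3) fell in all 3 drug groups. HIST1H1C (probe at chr6:26164029-26164088, hg18) read 4.48 and 4.77 at 0 h, 4.58 and 4.62 with DMSO, 5.94 and 5.95 with luteolin, 5.90 and 5.44 with gefitinib, and 5.34 and 5.90 with luteolin plus gefitinib. All drug arrays lay above DMSO. The changes were 1.34 ± 0.23, 1.07 ± 0.23 and 1.02 ± 0.23 (adjusted p of 0.0052, 0.00638 and 0.0116). The last 2 were not called under quantile normalization (0.34 and 0.54) or normexp background correction (0.91 and 0.95). That with luteolin plus gefitinib was also not called under median scaling (0.87), without either DMSO array or without replicate 2 of the drugs (0.74). Nor was that with gefitinib called without its replicate 1 (0.84).
HIST1H1D (probe at chr6:26342678-26342737, hg18) read 2.54 and 2.55 at 0 h, 2.24 and 2.20 with DMSO, 1.23 and 0.99 with luteolin, 1.13 and 1.06 with gefitinib, and 1.09 and 1.08 with luteolin plus gefitinib. Its 3 drug groups overlapped, with changes of -1.11, -1.13 and -1.14 (each ± 0.15, adjusted p of 0.00187, 0.000908 and 0.00171). Without luteolin replicate 2 the first was -0.99, under 2-fold. HIST1H1T, the testis form, was well above background on both arrays with luteolin and with luteolin plus gefitinib and on no other array, and was tested only through these. It was at least 2.70-fold higher than DMSO with luteolin plus gefitinib (adjusted p = 0.0274), and with luteolin at least 2.31-fold (adjusted p = 0.0593), which was not called. The call was lost without the filter on dim probes (adjusted p = 0.0522), under quantile normalization (0.0738) and without any one array of DMSO or of luteolin plus gefitinib (0.0695 to 0.133). HIST1H1E changed by 0.29 to 0.49 and was not called.

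**Figure D4:**
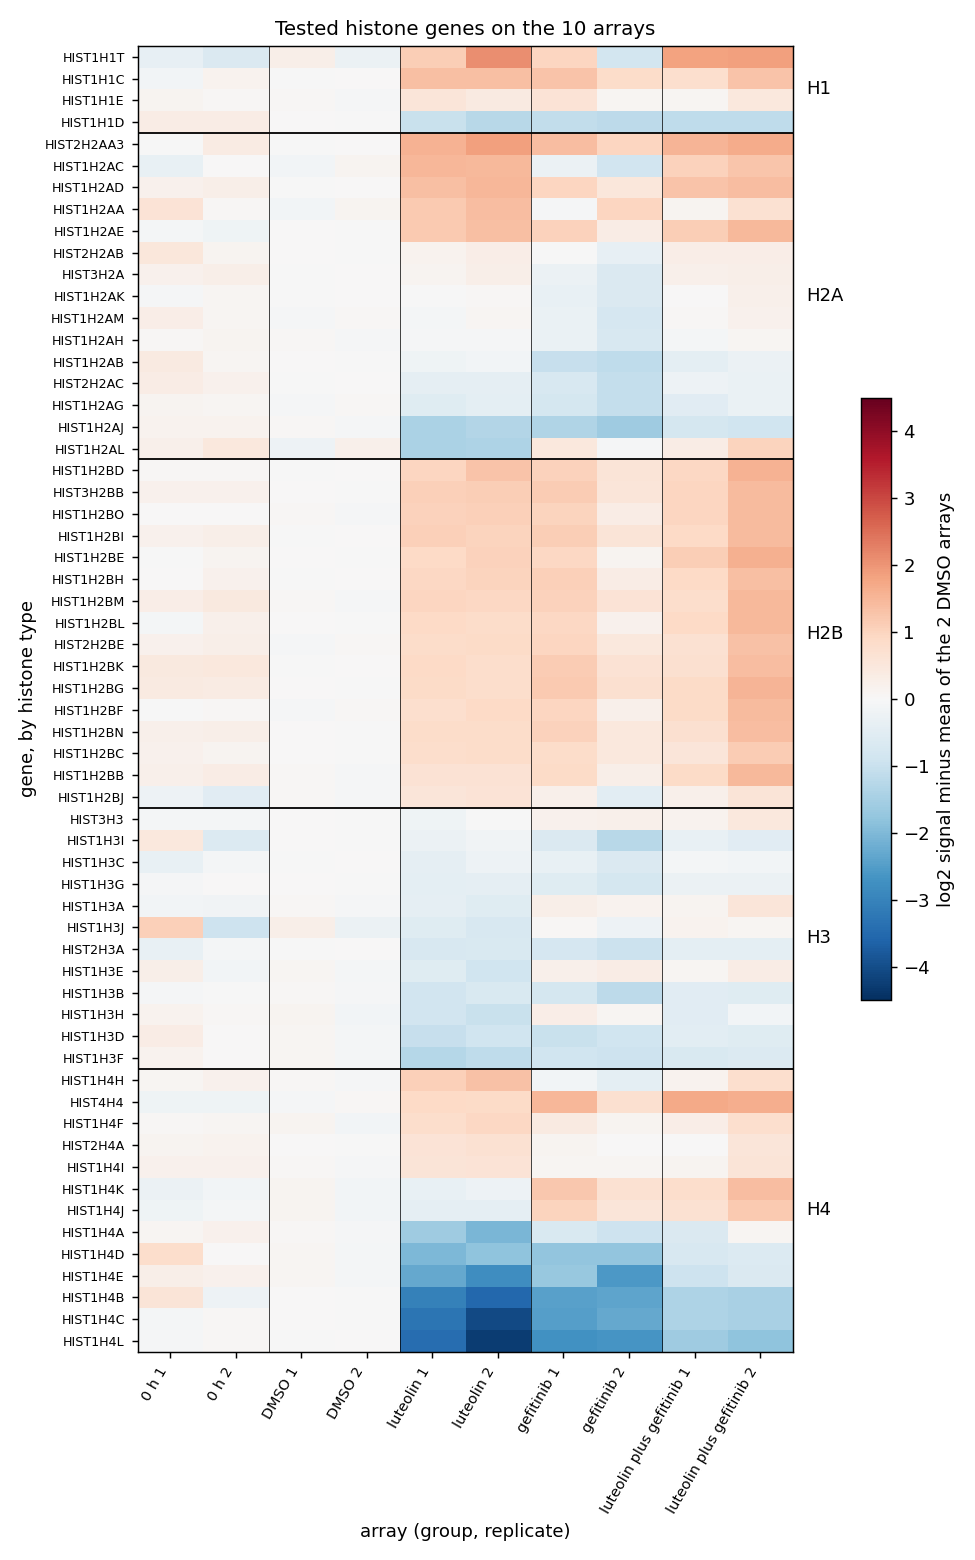
Log2 signal of each of the 60 tested histone genes (rows, by type and then by change with luteolin) on each array (columns), minus the mean of the 2 DMSO arrays. The 0 h and DMSO columns stay near 0 for most genes, the H2B rows are red in every drug column but for HIST1H2BJ on gefitinib replicate 2, and the rows of HIST1H4L, HIST1H4C, HIST1H4B and HIST1H4E are blue in all 6.

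For 19 genes more than 1 probe was on the array, and 21 other probes of these genes were tested. They had the same call as the probe used in 10 cases with luteolin, 13 with gefitinib and 10 with luteolin plus gefitinib, and opposite calls in 0, 1 and 1. In 4 genes the other probe overlapped the one used on the same strand, and in 3 of them it fell more in every drug group. For HIST2H2AB, the probe used changed by 0.22 with luteolin and another that shared 28 bases with it by -3.56 (adjusted p = 0.000203). For HIST2H2AC these were -0.40 and -3.39 (adjusted p = 0.000532), with 35 shared bases. For HIST1H3B they were -0.77 and -2.33 (adjusted p = 0.000398), with 47 shared bases. The 2 probes of HIST1H3D, with 20 shared bases, were close with luteolin, at -0.95 and -0.91. With gefitinib they changed by -0.95 and -1.50, and the second was called (adjusted p = 0.00105). For HIST1H2AM, a second probe 70 bases away fell by -1.82 with luteolin (adjusted p = 0.00114) and -1.54 with gefitinib (adjusted p = 0.00102). The HIST1H2AM probe used changed by -0.0038 and -0.53 there.
The counts of lowered H2A and H3 genes thus depend on the probe. When each gene was given by its probes' median level, 13 histone genes fell with gefitinib in place of 8. The opposite calls were those of HIST4H4, whose other probe, 1944 bases away, read -4.40 and -4.65 with DMSO and was at least 1.44-fold lower with gefitinib (adjusted p = 0.0065) and 1.87-fold lower with luteolin plus gefitinib (adjusted p = 0.0214). A dim second probe of HIST1H3G, 1622 bases away and on no DMSO array above background, was at least 2.38-fold higher with gefitinib (adjusted p = 0.00334, above background on 1 of 2 arrays) and 3.81-fold higher with luteolin plus gefitinib (adjusted p = 0.00272), where the probe used was not called. That of HIST1H2BN, 13849 bases away, was on no DMSO array above background either, and was at least 1.45-fold higher with luteolin (adjusted p = 0.00145). A probe named for HIST3H2BB on the opposite strand changed by -0.74 with luteolin, while another one, 1511 bases away and above background on 1 of the 2 DMSO arrays, changed by 1.88. By the median level over its probes HIST3H2BB turned to -0.74, -0.44 and -0.056 in the 3 drug groups, and HIST1H2BD, which also has a probe on the opposite strand, was not called (0.32 with luteolin and 0.60 with luteolin plus gefitinib). HIST2H2AA3 was raised by both of its probes (1.71 and 1.66 with luteolin). Each of these probes listed 2 RefSeq transcripts, so they do not separate this gene from the other one listed. Both probes lay on the plus strand in hg18, whereas the HIST2H2AA3 promoter shown above was on the minus strand in GRCh38.p14. The probe used for HIST1H2AC listed no RefSeq transcript. The HIST1H2AC probe that listed 1, 14419 bases away, changed by 1.23 with luteolin, where the probe used changed by 1.48. With luteolin plus gefitinib it changed by 0.52 (adjusted p = 0.0536, not called), where the probe used changed by 1.15. For HIST1H2AJ the other probe changed by -0.39 with luteolin, against -1.38, and the median level of both changed by -0.88, under 2-fold. Which probe reports on the named gene alone was not tested.

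**Figure D5:**
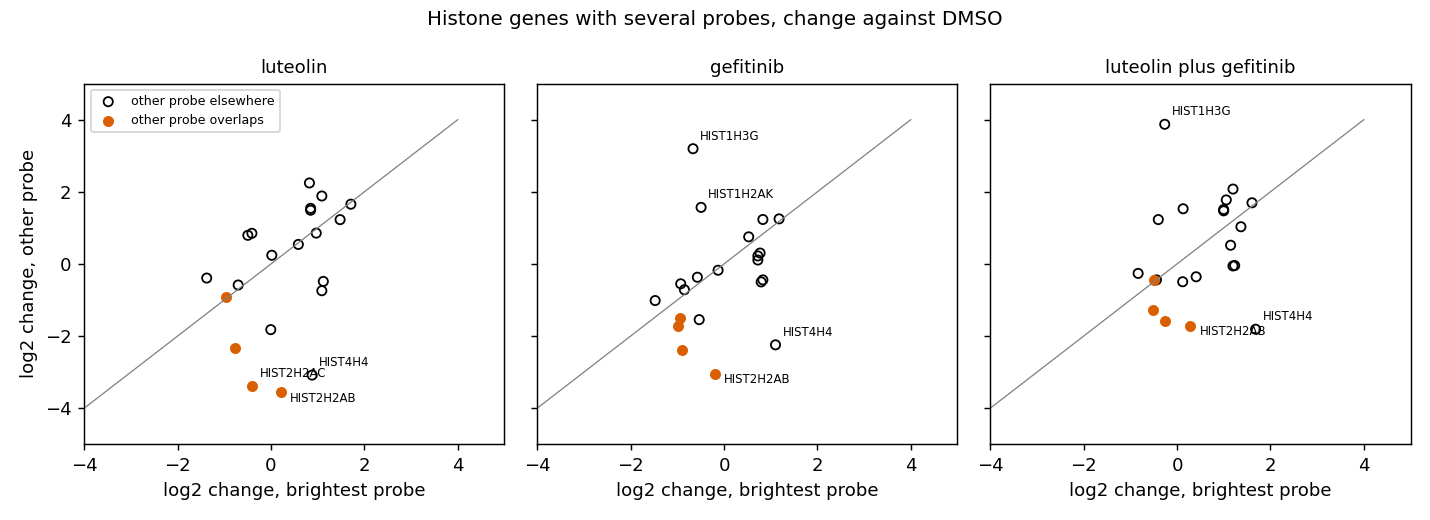
Log2 change against DMSO of the probe used (x axis) and of another probe of the same gene (y axis), 1 panel per drug group, for the 19 genes with several probes. Orange points are other probes that overlap the probe used by more than 1 base, the line marks equal change, and names are given where the changes differ by more than 2. The orange points lie below the line except for HIST1H3D with luteolin and with luteolin plus gefitinib.

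Between luteolin and the co-administration, most of the called genes were H4. With luteolin plus gefitinib 9 histone genes were higher than with luteolin and 0 lower by limma, where 11.3% of all tested genes were higher and 9.43% lower. Of the 9, 8 were H4 genes (HIST1H4A, HIST1H4B, HIST1H4C, HIST1H4D, HIST1H4E, HIST1H4J, HIST1H4K and HIST1H4L) and the other was HIST1H2AL. HIST1H4C was 2.24 ± 0.25 higher (adjusted p = 0.000664) and HIST1H4L 2.16 ± 0.25 (adjusted p = 0.000777). At an unadjusted p under 0.05, 19 histone genes differed in this comparison, in either direction. No share of all tested genes is given at that unadjusted threshold. No H2B gene was called between any 2 drug groups, and at an unadjusted p under 0.05 they were 0 between luteolin plus gefitinib and luteolin, 2 between luteolin plus gefitinib and gefitinib and 1 between luteolin and gefitinib.

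Against gefitinib, 4 histone genes were higher with luteolin plus gefitinib (17.1% of all tested genes) and 0 lower (9.64%). They were HIST1H1T, HIST1H2AC, HIST1H4D and HIST1H4E. Of these, HIST1H1T was well above background on no gefitinib array and was tested only through groups where it read higher. Its signal was at least 1.61-fold higher there. By the probe used, which listed no RefSeq transcript, HIST1H2AC was 1.72 ± 0.23 higher (adjusted p = 0.000629). Of all 60, 28 had an unadjusted p under 0.05, again without a share of all tested genes to set beside it. Between the single drugs, 3 were higher with luteolin and 8 lower, 5.0% and 13.3% of the 60, where 17.7% and 19.3% of all tested genes were. HIST1H1T, with the same limit, was among the 3. Without luteolin replicate 2 the lowered were 4, and without gefitinib replicate 1 they were 5. Under quantile normalization 10 were higher and 4 lower. HIST1H4H was 1.48 ± 0.22 higher with luteolin (adjusted p = 0.000823), and HIST1H4L 1.18 ± 0.25 lower (log2 change -1.18, adjusted p = 0.00451).

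With DMSO, limma called 0 histone genes against 0 h, where 0.0239% of all genes rose and 0.00955% fell. No histone gene had an unadjusted p under 0.05 either, and the methods' t-test called 3 higher and 5 lower unadjusted and 0 after Benjamini-Hochberg adjustment. The changes ran from -0.45 to 0.52. Against 0 h, 10 histone genes rose and 12 fell with luteolin (8.01% and 7.88% of all tested genes). With gefitinib 3 rose and 11 fell (15.1% and 14.4%), and with luteolin plus gefitinib 14 rose and 6 fell (11.5% and 8.19%). These comparisons share their drug arrays with those against DMSO. HIST1H1T, among the raised with luteolin and with luteolin plus gefitinib, was well above background on no 0 h array. HIST4H4, among the raised in all 3 drug groups, was so on 1 of the 2. Both genes were tested only through groups where they read higher. HIST1H4L changed by -3.87, -2.69 and -1.70 against 0 h in the 3 drug groups. Of the H2B genes 2, 0 and 6 rose against 0 h. The raised counts were 5 and 6 with luteolin without 0 h replicate 1 and 2 and 5 without luteolin replicate 2. They were 0 and 8 with gefitinib without its replicate 1 and 2, and 22 and 6 with luteolin plus gefitinib without its replicate 1 and 2. Under quantile normalization 1 rose and 17 fell with gefitinib, and 5 rose and 7 fell with luteolin plus gefitinib.

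The sign within slides was taken for the called genes as a description, on the same arrays that gave the calls. Each of the 21 genes called with luteolin against DMSO had the same sign on slide 2 and on slide 3, as did the 25 called with luteolin plus gefitinib, and the 11 called with gefitinib kept theirs on slide 2. Gefitinib replicate 2 shared slide 1 only with 0 h replicate 1, where all 14 genes called with gefitinib against 0 h kept their sign.

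Genes that act with the clustered histones were taken as 4 lists. Of all tested genes, 7.04% rose and 6.13% fell with luteolin, 16.6% and 14.1% with gefitinib, and 12.1% and 7.45% with luteolin plus gefitinib. Of 37 genes of S phase, among them DNA replication and nucleotide synthesis enzymes, 34 fell with luteolin against DMSO and 0 rose (91.9% of the list, median -1.88). With gefitinib 5 rose and 6 fell (13.5% and 16.2%, near the shares of all genes, median 0.14), and with luteolin plus gefitinib 0 rose and 6 fell (16.2%, median -0.38). RRM2, a subunit of ribonucleotide reductase, changed by -4.69 with luteolin (adjusted p = 8.4e-05). E2F2, a transcription factor of S phase entry, fell with luteolin too (adjusted p = 8.4e-05) and was well above background on 1 of the 2 luteolin arrays.

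Of 29 genes of histone mRNA transcription and processing, 5 fell and 0 rose with luteolin and with gefitinib, and 1 fell with luteolin plus gefitinib. The lowered were 17.2%, 17.2% and 3.45% of the list. CCNE2 (cyclin E2, which with CDK2 activates the histone gene coactivator NPAT) was at least 7.97-fold lower with luteolin (adjusted p = 0.000939), where it was well above background on 0 of 2 arrays. WDR33, a subunit of the polyadenylation complex, changed by -2.26 with gefitinib (adjusted p = 8.7e-05). SLBP changed by -0.75, -0.58 and 0.19 in the 3 groups (adjusted p of 0.00724, 0.00996 and 0.318) and was not called at 2-fold.
Of 25 histone chaperones, 6 fell with luteolin, 2 rose and 2 fell with gefitinib, and 1 rose and 1 fell with luteolin plus gefitinib. The lowered were 24.0%, 8.0% and 4.0% of the list, and the raised 8.0% with gefitinib and 4.0% with luteolin plus gefitinib. ASF1B and CHAF1B, which deposit H3 and H4 behind the replication fork, changed by -2.19 (adjusted p = 0.00107) and -1.97 (adjusted p = 0.000619) with luteolin.
Of 11 histone genes expressed outside S phase, 3, 4 and 4 fell in the 3 drug groups (27.3%, 36.4% and 36.4%) and 0 rose. CENPA, the H3 of centromeres, changed by -1.87, -1.77 and -2.39 (adjusted p of 0.00479, 0.00309 and 0.00183). H2AFX, whose protein is phosphorylated at DNA breaks, changed by -1.75, -1.16 and -1.12 (adjusted p of 0.00275, 0.00717 and 0.0121). H2AFX can also give stem-loop mRNA, and was kept in this list as it lies outside the clusters.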

How the data were processed

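The intensity values were made by the authors from the scanned arrays, with the background of each array subtracted and arrays not normalized to each other (Agilent Feature Extraction 10.7.3.1 per the file headers, another version in the methods), and deposited on a linear scale as processed signal. Control and outlier spots were left out, spots of a probe averaged, and log2 taken minus the array's 75th percentile. Of 41000 probes, the 28776 that were well above background on the 2 arrays of some group were fitted with limma 3.58.1 (R 4.3.3) over all 10 arrays and 5 groups, with 5 residual degrees of freedom and Benjamini-Hochberg adjustment over all these probes. Shares of all genes are over 20953 genes, 1 probe each. The number of arrays limits the precision. Only the limma fit and the rule for calling were tested on simulated data, drawn as log2 values. Members, lists, motifs and the alternatives were chosen with earlier results of these data known. Genes named were, per type, up to 4 with the largest called change against DMSO, HIST1H4L, and the one with the highest mean signal; of each list, the largest called changes, and SLBP. HIST1H4H, HIST1H4K, HIST4H4 and the genes of the probe and neighbor comparisons were named after their values were seen. Probe positions are hg18 per the file headers. Of the 64 genes, 62 matched a current symbol in RefSeq. Columns of per-sample values left unused numbered 0. The series' value table held the same signals for all 45015 spots (relative tolerance 1e-04). Alternatives are given in the closing section.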

Additional observations from a re-analysis of the deposited data

How the results depend on the processing

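The arrays number 2 a group, labels and file names of the drug arrays conflict, cross-hybridization between near-identical genes was not tested, and oligo-dT labelling was used. Counts below are histone genes of 60, and unless a cause is given it was not tested. Correlations of same-numbered deviations ran from -0.098 to 0.293 (median 0.114), over 0.1 in 6 of 10 pairs of groups. These weak values do not settle whether the replicate numbers pair the arrays. With the replicate as a block all genes called against DMSO stayed called (11 raised and 10 lowered with luteolin, 3 and 8 with gefitinib, 21 and 4 with luteolin plus gefitinib).

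Under quantile normalization, against DMSO, 0 rose and 15 fell with gefitinib and 10 rose with luteolin plus gefitinib. Against 0 h, 1 rose and 17 fell with gefitinib and 5 rose with luteolin plus gefitinib. It gave 8 higher with luteolin plus gefitinib than with gefitinib, and 10 higher and 4 lower with luteolin than with gefitinib. Median scaling left 13 raised with luteolin plus gefitinib against DMSO. Without the filter on dim probes, and with the median over each gene's probes, 5 rose with gefitinib against 0 h, and the latter gave 13 lowered against DMSO. The slide as a block gave 7 raised with gefitinib against DMSO and 8 with luteolin plus gefitinib against 0 h.

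With no minimum fold, which only loosens the rule, 24 rose with luteolin, 18 rose and 22 fell with gefitinib and 8 fell with luteolin plus gefitinib against DMSO. Against 0 h, 17 rose with luteolin, 11 rose and 21 fell with gefitinib, and 24 rose and 13 fell with luteolin plus gefitinib. Between drugs, 15 were higher and 1 lower with luteolin plus gefitinib than with luteolin, 18 higher than with gefitinib, and 14 higher with luteolin than with gefitinib. No share of all tested genes is given under this looser rule, so these counts are not read as a result about histone genes. The methods' t-test against 0 h, unadjusted, gave 18 raised with luteolin, 1 raised with gefitinib, 5 raised and 12 lowered with luteolin plus gefitinib, and 3 raised and 5 lowered with DMSO, and 0 in each group after Benjamini-Hochberg adjustment.

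By the treatments of the file names, which exchange the drug groups, 21 rose and 4 fell with luteolin, 11 rose with gefitinib, and 3 rose and 8 fell with luteolin plus gefitinib against DMSO. Against 0 h, 6 fell with luteolin, 10 rose with gefitinib, and 3 rose and 11 fell with luteolin plus gefitinib. Between drugs, 0 were higher and 4 lower with luteolin plus gefitinib than with luteolin, 8 higher and 3 lower than with gefitinib, and 9 higher and 0 lower with luteolin than with gefitinib.

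Leaving out 1 array at a time, raised and lowered counts against DMSO ran from 4 to 12 and 9 to 11 with luteolin, 0 to 15 and 8 to 12 with gefitinib, and 6 to 24 and 4 to 4 with luteolin plus gefitinib. Against 0 h they ran from 5 to 10 and 10 to 14, 0 to 8 and 9 to 15, and 6 to 22 and 4 to 6, and with DMSO from 0 to 0 both ways. Luteolin plus gefitinib gave 9 to 11 higher and 0 to 1 lower than luteolin, and 4 to 5 higher and 0 to 0 lower than gefitinib. Luteolin gave 2 to 4 higher and 4 to 9 lower than gefitinib.

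Of the 54 changes against DMSO of the 18 genes named by rule, 51 kept direction and call under normexp background correction, 42 under quantile normalization and 54 with the series' value table. Directions turned under quantile normalization for HIST1H1T with gefitinib (-0.41) and HIST3H3 with gefitinib (-0.63) and with luteolin plus gefitinib (-0.29). By file names they turned for HIST1H2AC with gefitinib (1.48) and with luteolin plus gefitinib (-0.57), and for HIST3H3 with luteolin (0.31) and gefitinib (-0.10). Leaving out 1 array, HIST1H1T with gefitinib ran from -0.84 (without gefitinib replicate 1) to 0.95 (without gefitinib replicate 2), and was -0.20 without DMSO replicate 2. By the median over its probes HIST3H2BB was -0.74, -0.44 and -0.056 in the 3 drug groups, the values of its opposite-strand probe.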
